A study of Mus musculus with 96 samples.

Results

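Loss of Bmal1, the gene symbol Arntl, in mouse liver was examined here in animals that fed ad libitum (AL), by setting 12 libraries of Bmal1 KO liver against 12 of Bmal1 WT liver. These 24 libraries were chosen by their labelled genotype and feeding regimen out of the 96 of the series, which holds 8 groups (Bmal1 and Cry1/2 lines, KO and WT, AL or night restricted feeding, here RF). Livers came from mice aged 12 to 16 weeks sampled every 4 h, at ZT0, ZT4, ZT8, ZT12, ZT16 and ZT20 (zeitgeber time, ZT, counts the hours from lights on), and each group was made of 2 numbered series of 6 libraries, series 1 and series 8. The labels name the genotypes as Bmal1 KO and Bmal1 WT only. They give no promoter or cell type for the deletion, no strain background and no sex, and they tie no library to an animal, so the p-values below measure the spread between these libraries. Each time held 2 libraries per group, and the mean level of a gene is its average over the 6 times with equal weight.

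BMAL1 pairs with CLOCK or NPAS2 and binds E-boxes in DNA, where it drives the Period and Cryptochrome genes, whose proteins block it, and the REV-ERB receptors (Nr1d1, Nr1d2), which repress Arntl itself through elements shared with the activating ROR receptors. The PAR bZIP factors (Dbp, Tef, Hlf) and their antagonist Nfil3 form a further output arm through D-boxes. In liver this network times the transcription of genes of lipid, glucose, bile acid and drug metabolism over day and night.

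The libraries held 13287386 to 28835295 counts in KO (median 24492786) and 12095641 to 29599821 in WT (median 23284200), and 18326 genes were tested. Hepatocyte markers were abundant in all 24 libraries, and their summed level, of 13 genes, was 64380 to 88640 CPM (counts scaled to the size of the library) in KO and 116300 to 159400 CPM in WT. That gap was mostly Alb: of the 13 markers, 3 were called lower (23.1%, against 9.48% of all genes tested) and 0 higher. Of the other 11 marker lists, covering immune, endothelial, stellate, biliary, erythroid, adipose, pancreatic, gut and kidney cells, the summed ranges of KO and WT libraries overlapped in each where a gene was detected. Biliary markers summed to 66.5 to 122 CPM in KO and 45.2 to 103 in WT. Sox9 and Spp1 were called higher among these 7 (28.6%, against 10.8% of all genes tested), while the median log2 fold of the 7 was -0.02. The call of Spp1 was lost under 6 of 14 alternative analyses. Pancreatic markers, nearly all Cela1, summed to 25.5 to 64.3 CPM in KO and 10.5 to 30.9 in WT. The 2 WT libraries of series 1 at ZT0 and ZT4 stood apart by Saa1, an acute phase gene, above 1000 CPM. In bulk tissue fewer cells of a type and less RNA per cell cannot be told apart.

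Of the 18326 genes, 3724 (20.3%) differed in mean level between KO and WT at an adjusted p under 0.05 (edgeR quasi-likelihood test, Benjamini-Hochberg), 1987 higher (10.8%) and 1737 lower (9.48%). Of these, 1043 differed at least 2-fold, 586 higher and 457 lower. The lowest KO library lay above the highest WT library for 153 genes (0.835% of those tested), and the highest KO library lay below the lowest WT library for 147 (0.802%), together 1.64%. Leaving out 1 of the 4 series of 6 libraries in turn gave 2290 (without KO series 1), 2636 (without KO series 8), 2298 (without WT series 1) and 3955 (without WT series 8) called genes. Without WT series 8 the split was 2585 higher and 1370 lower. With the series as a random effect, in limma-voom, 1361 genes were called (719 higher, 642 lower). In that fit the calls of Rora, Usp2, Tsc22d3, Klf10, Elovl3, Cyp7a1, Ctdsp2, Mup15, Rgs16, Cyp2a4, Fasn, Hmgcs1, Idi1, Slc2a2, Slc37a4, Pfkfb3, Abcg5, Asns, Hsf1, Saa1 and Spp1 were lost, all described here. The counts of gene lists are to be read against the 10.8% and 9.48% of all genes called higher and lower.

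**Figure D1:**
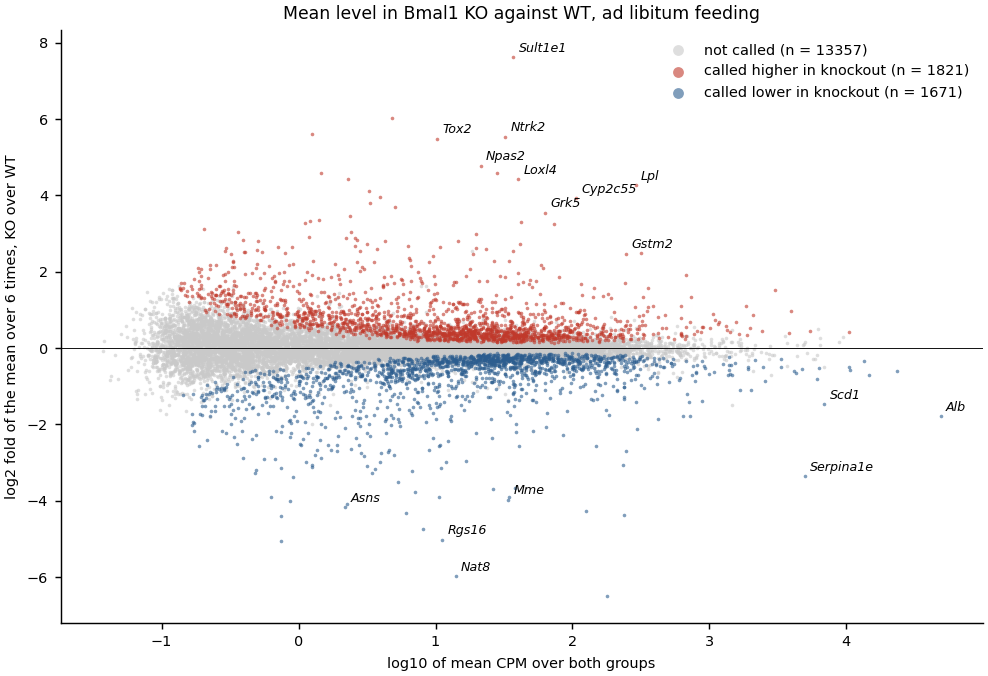
Log2 fold of the mean level in KO over WT (vertical axis) against the log10 of the mean CPM over both groups (horizontal axis) for the 16849 genes with no time at 0 counts in both libraries of a group; red and blue points were called higher and lower in KO at an adjusted p under 0.05. Called genes lie on both sides of 0 at all levels, with Sult1e1 (log2 fold 7.62) at the top, Nat8 (-5.98) near the bottom and Alb (-1.78) as the most abundant.

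The activating arm of the clock was examined first. Arntl RNA itself was present in every KO library, at 9.79 (lowest), 11.3 (median) and 15 (highest) CPM, against 0.271, 22.7 and 35.5 in WT. KO libraries were flat over the day (fitted range 0.03 log2), while WT libraries fell from 33.8 CPM on average at ZT0 to 1.13 at ZT12 (fitted range 4.91 log2, peak at ZT22.6). The mean over the day therefore did not pass the test (log2 fold 0.29 ± 0.14, SE, adjusted p = 0.131), but the KO effect depended on time (interaction adjusted p = 1.44e-12). Without WT series 8 Arntl was called higher in KO (log2 fold 0.72, adjusted p = 0.00172), and it was called higher under RF as well (0.64 ± 0.14, adjusted p = 0.000288). Gene counts cannot show whether a deleted part of the transcript is missing, so the level of Arntl gives no direct check of the knockout.

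Npas2, the paralog of Clock that also pairs with BMAL1, was at 25.7 to 51.4 CPM in KO (median 37.4) and at 0.0903 to 15.6 in WT (median 2.08), with no overlap. Its log2 fold was 4.78 ± 0.19 (SE, adjusted p = 3.29e-25), and it ran from 1.07 at ZT0, near the WT peak, to 8.51 at ZT12, where both WT libraries were under 0.1 CPM. Clock rose by less (log2 fold 0.79 ± 0.13, adjusted p = 5.51e-06), from 15.2 to 108 CPM in WT to a flat 85.1 to 105 in KO. All KO libraries of Clock thus lay within the WT range, in its upper portion.

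The repressors of the E-box arm did not move one way. Cry1, whose protein blocks CLOCK and BMAL1, was at 56.4, 73.9 and 87.0 CPM (lowest, median and highest) in KO and at 5.87, 21.1 and 53.9 in WT, so that every KO library lay above every WT library (log2 fold 1.79 ± 0.12, adjusted p = 4.45e-18). The related Cry2 rose by 0.49 ± 0.09 (adjusted p = 1.17e-05), with overlap. Per3, a Period gene, fell by 0.88 on the log2 scale in mean (adjusted p = 5.11e-06), but at ZT0 it was 4.85-fold higher in KO and at ZT8 7.45-fold lower, since KO stayed at 4.61 to 11.3 CPM while WT ran from 1.62 to 65.2. Per1, another Period gene, did not pass the test in mean (log2 fold 0.00, adjusted p = 1) or by time (interaction adjusted p = 1). It was at 5.31 to 30.1 CPM in KO and 1.27 to 53.6 in WT, and its log2 fold ran from -0.31 to 0.63 over alternative analyses.

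Ciart, a repressor of CLOCK and BMAL1 activity, stayed at 0.225 to 0.831 CPM in KO, around the level of the WT libraries at ZT0 and ZT4, while WT reached 42.8 CPM at ZT12 (log2 fold of the mean -2.80 ± 0.28, adjusted p = 2.3e-11). Bhlhe41, an E-box binding repressor, had 0 counts in both KO libraries of 4 times and at most 0.108 CPM in any, against 0.191 to 17.9 CPM in WT (adjusted p = 7.33e-17). Its paralog Bhlhe40 kept its mean level within the error (log2 fold 0.08 ± 0.15, adjusted p = 0.786). The 3 genes of this group therefore differed in level: 2 fell and 1 did not pass the test.

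To show which of these genes carry the canonical E-box next to their start site, the 250 bases before the annotated start (RefSeq, GRCm38.p6) were searched on both strands for the E-box CACGTG, the ROR element core TAGGTCA and the D-box TTATGNAA. Windows existed for 16 of the 19 clock genes. Printed here are 4 genes with an E-box whose mean levels in KO went different ways, and Nfil3 with the ROR element core, each 5′ to 3′ on the gene's strand with the matches in capitals. No match overlapped another.
Ciart: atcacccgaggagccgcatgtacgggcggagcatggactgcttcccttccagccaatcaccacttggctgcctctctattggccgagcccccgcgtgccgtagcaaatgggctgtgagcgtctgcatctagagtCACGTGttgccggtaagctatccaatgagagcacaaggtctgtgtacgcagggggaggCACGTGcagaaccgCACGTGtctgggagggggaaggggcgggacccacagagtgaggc
Cry1: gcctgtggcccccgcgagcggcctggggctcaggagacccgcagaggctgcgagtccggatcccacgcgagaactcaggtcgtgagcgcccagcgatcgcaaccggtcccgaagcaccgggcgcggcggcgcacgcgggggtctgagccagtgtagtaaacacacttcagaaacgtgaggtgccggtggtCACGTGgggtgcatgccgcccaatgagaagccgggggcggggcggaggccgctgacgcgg
Per1: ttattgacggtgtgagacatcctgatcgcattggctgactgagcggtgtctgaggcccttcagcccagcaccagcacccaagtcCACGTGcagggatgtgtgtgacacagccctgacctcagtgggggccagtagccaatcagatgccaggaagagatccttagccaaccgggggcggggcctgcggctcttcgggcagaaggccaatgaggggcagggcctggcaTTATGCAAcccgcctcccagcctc
Tef: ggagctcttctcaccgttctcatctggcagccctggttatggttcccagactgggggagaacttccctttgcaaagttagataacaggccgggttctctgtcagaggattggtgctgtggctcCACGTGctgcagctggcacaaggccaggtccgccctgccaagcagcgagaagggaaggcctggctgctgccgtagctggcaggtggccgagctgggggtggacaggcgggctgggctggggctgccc
Nfil3: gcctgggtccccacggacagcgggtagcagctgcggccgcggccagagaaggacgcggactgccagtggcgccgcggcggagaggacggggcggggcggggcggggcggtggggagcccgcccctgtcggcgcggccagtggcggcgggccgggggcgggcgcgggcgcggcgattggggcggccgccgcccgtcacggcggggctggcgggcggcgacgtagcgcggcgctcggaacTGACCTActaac

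The window of Ciart is chr3:95882229-95882478 on the minus strand and holds 3 E-boxes, which begin 116, 58 and 44 bases before the start. That of Cry1 is chr10:85185055-85185304 (minus strand), with 1 E-box at 60 bases. That of Per1, at the first of its 2 annotated starts, is chr11:69098699-69098948 (plus strand), with an E-box at 166 bases and a D-box at 24. The window of the other start, chr11:69099902-69100151, held no match. That of Tef, at the first of its 2 annotated starts, is chr15:81802423-81802672 (plus strand), with an E-box at 127 bases, and that of Nfil3 is chr13:52981040-52981289 (minus strand), where the ROR element core reads on the opposite strand 12 bases before the start. The other start of Tef had an E-box at 138 bases, Bhlhe41 an E-box at 153, and Per3 D-boxes at 205 and 158. No match of these letters was found in the windows of Arntl, Clock, Npas2, Cry2, Nr1d1, Nr1d2, Rora, Dbp and Hlf.

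An E-box was present in 6.02% of all 32851 windows, in 7.75% of the 15442 windows of genes tested, in 7.35% of those of genes called higher and in 8.39% of those of genes called lower. The share was 12.5% (15 of 120 windows) for genes whose daily rhythm differed between KO and WT, and 28.6% (6 of 21 windows, 5 genes) for the clock genes. These sets share genes, among them Tef, so their shares are not independent. The ROR element core was in 2.23% of all windows and the D-box in 3.07%, against 1 and 2 of the 21 clock windows. A match describes letters near the start and says nothing on binding.

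Among the receptors that act on ROR elements, both REV-ERB genes fell. Nr1d1, the repressor REV-ERB alpha, was at 0.984, 1.86 and 2.28 CPM (lowest, median, highest) in KO and at 1.37, 26.9 and 154 in WT (log2 fold -3.69 ± 0.18, adjusted p = 8.82e-23). At ZT8, near its WT peak, it was 71.3-fold lower in KO, and at ZT20 the groups met at 1.69 and 1.47 CPM on average. Nr1d2, REV-ERB beta, fell by 2.56 on the log2 scale (adjusted p = 3.33e-19). Rora, an activating receptor of the same elements, rose by 0.35 ± 0.11 (adjusted p = 0.0239), a call that was lost without KO series 1 (log2 fold 0.28), without WT series 1 (0.14), without the libraries that stood apart (0.29) and with the series as a random effect (adjusted p = 0.15).

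Among 8 genes listed as responding to REV-ERB and ROR receptors, 5 rose and 0 fell (62.5% higher, against 10.8% of all genes tested), with a median log2 fold of 1.10 against 0.02 over all genes tested. Among those that rose besides Cry1 were Elovl3, a fatty acid elongase (550 to 1387 CPM in KO, 37.4 to 897 in WT, log2 fold 1.92 ± 0.37, adjusted p = 9.05e-05), Lonrf3 (1.28 ± 0.21, adjusted p = 5.57e-06) and Avpr1a, the liver vasopressin receptor (0.93 ± 0.12, adjusted p = 2.92e-08). The count was 5 without any 1 of the 4 series. WT libraries of Avpr1a ran from 8.85 to 60.9 CPM and KO libraries from 40.6 to 64.1.

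In the PAR bZIP arm the KO effect depended on time for 3 of 4 genes, and 1 fell in mean level. Dbp was at 2.03, 3.07 and 4.79 CPM in KO and at 0.286, 7.19 and 161 in WT, a log2 fold of the mean of -1.85 ± 0.22 (adjusted p = 1.68e-09). At ZT8 KO was 48.9-fold lower, and at ZT0, the WT trough, 7.16-fold higher. Tef held 92.1 to 122 CPM in KO within the 32.6 to 323 of WT, so that its mean did not pass the test (-0.18 ± 0.08, adjusted p = 0.0967) while the dependence on time did (interaction adjusted p = 2.4e-12). Hlf (-0.12 ± 0.10, adjusted p = 0.433) and Nfil3 (0.12 ± 0.14, adjusted p = 0.608) did not pass the test in mean. Nfil3 passed it by time (interaction adjusted p = 0.00322), and Hlf did not (interaction adjusted p = 1, rhythm difference adjusted p = 0.454).

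**Figure D2:**
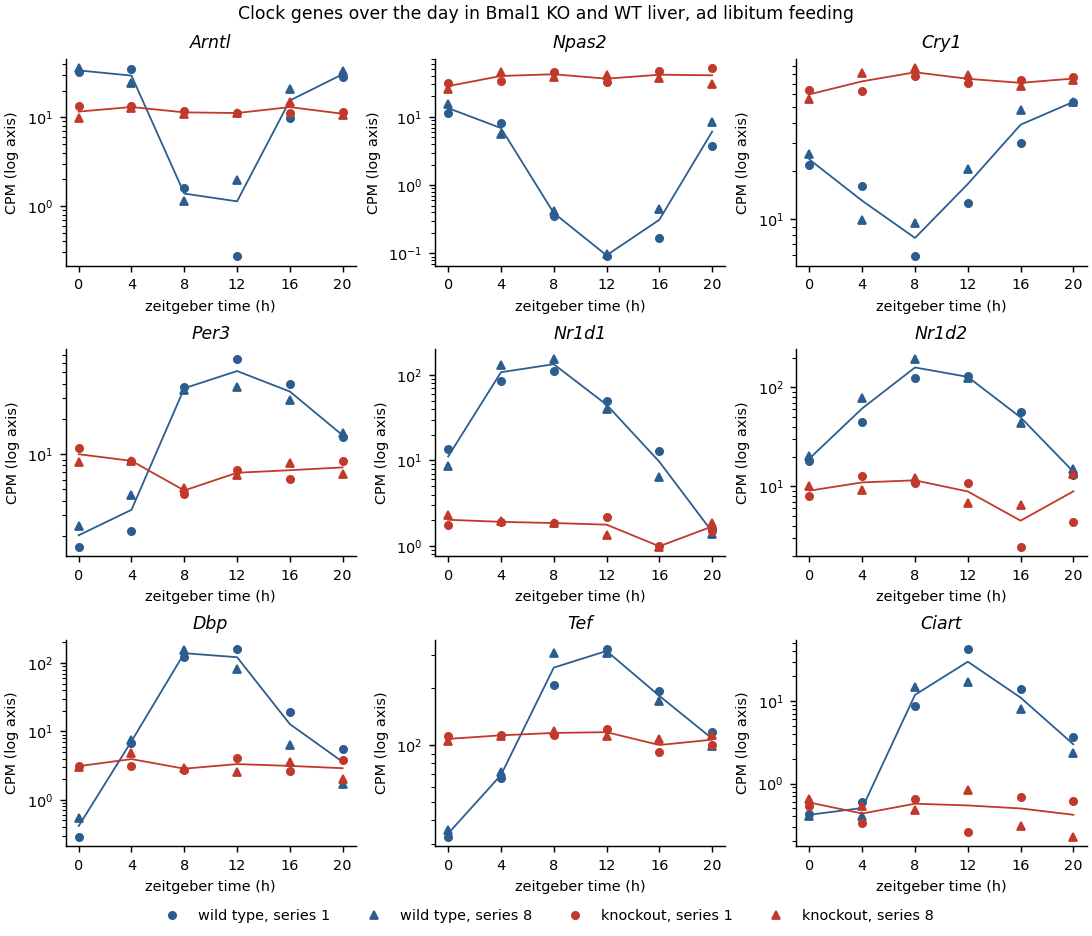
CPM (log axis) over zeitgeber time in hours for 9 clock genes, with one point per library (blue WT, red KO; circles series 1, triangles series 8) and lines through the means of the 2 libraries per time. KO lines vary less over the day than WT lines, and lie at or above the WT peak for Npas2 and Cry1, near or below the WT trough for Nr1d1, Nr1d2 and Ciart, and between trough and peak for Arntl, Per3, Dbp and Tef.

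Of 12 genes listed as responding to PAR bZIP factors, 2 rose (16.7%) and 5 fell (41.7%), against 10.8% and 9.48% of all genes tested (median log2 fold -0.50). In the random effect fit 1 rose and 3 fell. Por, the electron donor of microsomal P450s, fell from a median of 416 to 185 CPM (log2 fold -0.96 ± 0.15, adjusted p = 1.85e-06), and Cyp2a5, a coumarin hydroxylase, from 1220 to 236 (-1.78 ± 0.24, adjusted p = 7.99e-08). Cyp2b10, the P450 that marks activation of the receptor CAR, was at 19.6 to 126 CPM in KO and 2.57 to 59.3 in WT (2.54 ± 0.47, adjusted p = 4.72e-05). Cyp7a1, the rate-limiting enzyme of bile acid synthesis, rose by 1.07 ± 0.30 (adjusted p = 0.00786), and this call was lost without KO series 8, without WT series 1 and without WT series 8, where its log2 fold went as low as 0.34. Of the list 1 gene rose without KO series 8, WT series 1 or WT series 8. Reads of Cyp2a5 and its near-identical neighbour Cyp2a4 are uncertain, since the counting could split them.

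Of 10 E-box output genes outside the clock, 6 fell (60%, against 9.48% of all genes tested; 3 with the series as a random effect) and 1 rose, Tsc22d3 (median log2 fold -0.69). Gys2, liver glycogen synthase, was at 63.3, 78.3 and 87.8 CPM in KO and 96.5, 288 and 684 in WT, with no overlap (log2 fold -1.62 ± 0.11, adjusted p = 2.82e-17). Nampt, the rate-limiting enzyme of NAD salvage, was at 35.1 to 56.0 CPM in KO and 37.5 to 177 in WT (-0.87 ± 0.10, adjusted p = 6.65e-10). Coq10b, a coenzyme Q binding protein, fell by 0.90 (adjusted p = 3.63e-06), and Klf10, a Kruppel-like repressor, by 1.16 (adjusted p = 0.00227). Tsc22d3, a target of glucocorticoids as well, rose by 0.63 ± 0.17 (adjusted p = 0.00411), a call lost without KO series 8. Usp2, a deubiquitinase, fell by 0.51 (adjusted p = 0.0453) and lost its call without KO series 1, WT series 1, WT series 8 or the libraries that stood apart, but its dependence on time was called (interaction adjusted p = 3.01e-06). Wee1, the mitotic kinase, did not pass the test in mean (-0.21 ± 0.17, adjusted p = 0.433) and passed it by time (interaction adjusted p = 2.42e-06). With 1 series left out 4 to 6 of the 10 fell, and 4 without the libraries that stood apart.

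Rhythm over the day was compared with a 24 h cosine. In WT 1452 genes were rhythmic (7.92% of those tested, adjusted p under 0.05 and a fitted range of at least 0.5 log2), and in KO 49 (0.267%), with 4 in both. The KO count fell to 6 among genes with a mean of at least 1 CPM and to 2 without KO series 8, and 32 of the 49 had a fitted peak from ZT16 to under ZT20. The WT count was 419 without WT series 1 and 213 without WT series 8, so 1 series of 6 libraries alone called far fewer genes.

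The rhythm itself differed between KO and WT for 111 genes (0.606%), and for 107 of them the range was smaller in KO; the count was 31 to 51 with 1 series left out (33 without KO series 1, 36 without KO series 8, 31 without WT series 1, 51 without WT series 8). Of the 1452 genes rhythmic in WT the range in KO was the smaller in 1438, and their median range was 1.06 log2 in WT and 0.37 in KO, against 0.52 and 0.34 over all genes. Being chosen for a range in WT favours a larger range there, so these values describe the set. WT peaks were spread over the day, with 332 from ZT8 to under ZT12 as the most frequent and 191 from ZT0 to under ZT4 as the least. In mean level 367 of the 1452 rose and 367 fell.

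**Figure D3:**
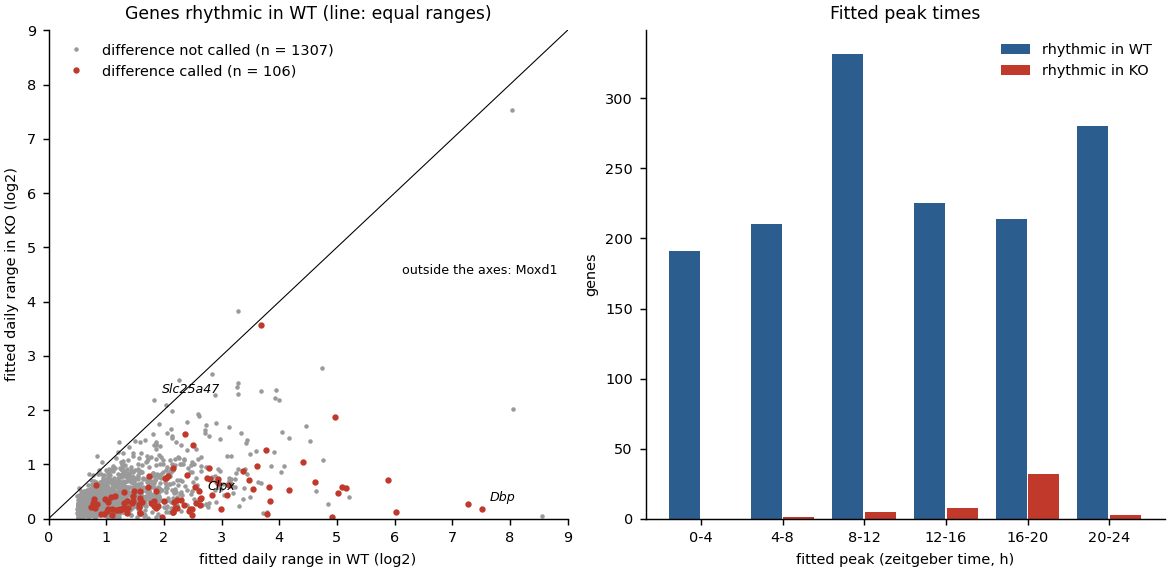
Left, fitted daily range in KO against WT (log2) for 1413 genes rhythmic in WT with no time at 0 counts, red where the difference in rhythm was called (106), with the line of equal ranges; 1 gene lies outside the axes. Right, number of genes rhythmic in WT (blue) and KO (red) by fitted peak in bins of 4 h; KO bars are largest from ZT16 to under ZT20 (32 genes).

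Across the 6 times the KO effect varied for 75 genes (0.409%), of which 39 were also higher in mean, 24 lower and 12 neither, and 74 were rhythmic in WT and 0 in KO. With 1 series left out the count was 39 (without KO series 1), 35 (without KO series 8), 32 (without WT series 1) and 50 (without WT series 8). Outside the clock genes, the strongest was Clpx, a mitochondrial unfoldase that supports heme synthesis, at 391, 503 and 628 CPM in KO and 57.4, 190 and 376 in WT, with no overlap (log2 fold of the mean 1.57 ± 0.10; WT range 2.64 log2 with a peak at ZT0.219, KO range 0.39). Lgalsl, a galectin-like gene, had no overlap either (54.6 to 80.3 CPM in KO, 5.51 to 52.3 in WT, log2 fold 1.68 ± 0.12).

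Chka, choline kinase, was at 82.3 to 222 CPM in KO and 11.5 to 210 in WT (1.39 ± 0.13, adjusted p = 2.43e-12). Clpx, Lgalsl and Chka peaked in WT between ZT21.7 and ZT0.219, and in KO they lay in the upper part of the WT range or above it. Slc5a6, a vitamin transporter with a WT peak at ZT11.1, went the other way (5.03 to 8.19 CPM in KO, 5.49 to 32.2 in WT, log2 fold -0.73 ± 0.10, adjusted p = 2.03e-07).

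Among the genes with the widest WT rhythm that was smaller in KO, Cdkn1a, the cell cycle inhibitor p21, was at 5.68, 31.4 and 47.1 CPM in KO and 0.652, 4.50 and 19.2 in WT (log2 fold 2.62 ± 0.27, adjusted p = 7.44e-11). Pitx3, a homeobox factor, was at 4.53 to 32.1 CPM in KO and 0.181 to 12.8 in WT (2.65 ± 0.36, adjusted p = 6.77e-08), and Dnmt3b, a de novo DNA methyltransferase, at 8.42 to 16.4 and 0.613 to 9.83 (1.76 ± 0.16, adjusted p = 4.15e-13). All were higher in KO at 6 of 6 times.

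Few genes were rhythmic in both groups. Slc25a47, a mitochondrial carrier of hepatocytes, had a range of 1.84 log2 in WT and 2.19 in KO, with fitted peaks at ZT9.56 in each, although its mean level fell by 1.28 on the log2 scale (adjusted p = 2.52e-05). Ctdsp2, a phosphatase, had ranges of 0.87 and 0.90 log2 with peaks at ZT7.21 and ZT7.16. Ablim1, an actin binding protein, had ranges of 0.84 and 1.15 log2 with peaks at ZT22.0 and ZT21.9. The fourth, Cdca7, named after its values were seen, had ranges of 2.14 and 1.99 log2 with peaks at ZT17.9 and ZT19.7, at 4.53 CPM or less in KO.

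The largest increases outside the clock were in genes of unlike function. Sult1e1, the estrogen sulfotransferase, was at 4.74, 65.0 and 166 CPM in KO and 0, 0.14 and 3.54 in WT, with no overlap. Lpl, lipoprotein lipase, which adult liver normally holds at low level, was at 364, 535 and 788 CPM in KO and 10.3, 30.7 and 57.8 in WT (log2 fold 4.27 ± 0.22, adjusted p = 6.42e-22). Ntrk2, the receptor of the growth factor BDNF, was at 42.1 to 90.5 CPM in KO and 0.363 to 3.61 in WT (5.54 ± 0.42, adjusted p = 2.29e-15). KO libraries of these genes lay above WT libraries at every time, but a fold in one direction at all 6 times was a condition of their choice. None showed a called rhythm in KO.

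The next were Tox2, an HMG-box factor (10.1 to 36.5 CPM against 0.136 to 1.08), Slc34a2, a phosphate transporter (22.2 to 78.8 against 0.0903 to 10.4), and Loxl4, a lysyl oxidase (29.1 to 126 against 0.722 to 12.0). Then came Nckap5 (4.26 to 9.81 against 0.181 to 1.41), Cyp2c55, a P450 (123 to 245 against 5.22 to 47.8), Npnt, a matrix protein (3.60 to 9.41 against 0 to 1.23), Defb1, an antimicrobial peptide (5.33 to 14.8 against 0.0674 to 2.62), and Grk5, a receptor kinase (53.4 to 174 against 3.79 to 23.9). None of the 11 genes named in these paragraphs overlapped between groups, against 1.64% of all genes tested without overlap. Their choice by the size of the fold favours this. In RF libraries, which share no library with AL, their log2 folds were 2.89 (Grk5) to 8.05 (Sult1e1), all called.

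Among the largest decreases, Nat8, an N-acetyltransferase, was at 0.051, 0.571 and 1.20 CPM in KO and 8.76, 28.7 and 44.8 in WT (log2 fold -5.98 ± 0.31, adjusted p = 1.29e-21). Mme, the peptidase neprilysin, was at 2.21 to 5.91 CPM in KO and 16.1 to 113 in WT (-3.97 ± 0.28, adjusted p = 1.28e-16). Col27a1, a fibrillar collagen gene, was at 1.58 to 4.94 and 18.7 to 202 (-3.90 ± 0.24, adjusted p = 4.74e-19), and Serpine2, a protease inhibitor, at 0.864 to 2.80 and 4.06 to 38.8 (-3.90 ± 0.41, adjusted p = 1.37e-10). None of these overlapped between groups, against 1.64% of all genes tested without overlap, and their choice by the size of the fold favours this.

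Ugt1a9, a glucuronosyltransferase, was at 3.53 to 7.94 CPM in KO and 25.6 to 101 in WT, but genes of its cluster share exons and the counting could split their reads. The same holds for Mup15, Mup17 and Mup9, major urinary protein genes (medians of 1.24, 7.15 and 0.753 CPM in KO and 301, 384 and 10.6 in WT), and for Cyp2a4. In KO the medians of Mup15 and Mup17 fell between the series. Mup15 was at most 0.51 CPM in KO series 1 and at least 1.97 in KO series 8, and Mup17 at most 2.65 and at least 11.6. Mup15 overlapped, with KO up to 27.3 CPM and WT down to 1.72. Its log2 fold of -6.49 ran from -11.26 to -3.80 over the alternatives, and its call was lost with the series as a random effect (adjusted p = 0.0776 in limma-voom). The call of Mup17 was lost without KO series 1 and without WT series 8 (log2 fold -1.71 at the smallest against -4.38), and that of Cyp2a4 without WT series 1 and without WT series 8. Acot3, a peroxisomal thioesterase, was at 0.124 to 1.46 CPM in KO and 0.134 to 53.9 in WT (-4.33 ± 0.57, adjusted p = 4.47e-08), a call that was lost without WT series 8 (log2 fold -2.85).

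Rgs16, a regulator of G protein signalling that is timed in liver by feeding, was at 0 to 5.36 CPM in KO and 0.0669 to 111 in WT (log2 fold -5.02 ± 1.0, adjusted p = 0.000133). In RF its log2 fold was -1.47 (adjusted p = 0.301), and no gene passed the test of the difference between AL and RF. Its AL call was lost without WT series 8.

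**Figure D4:**
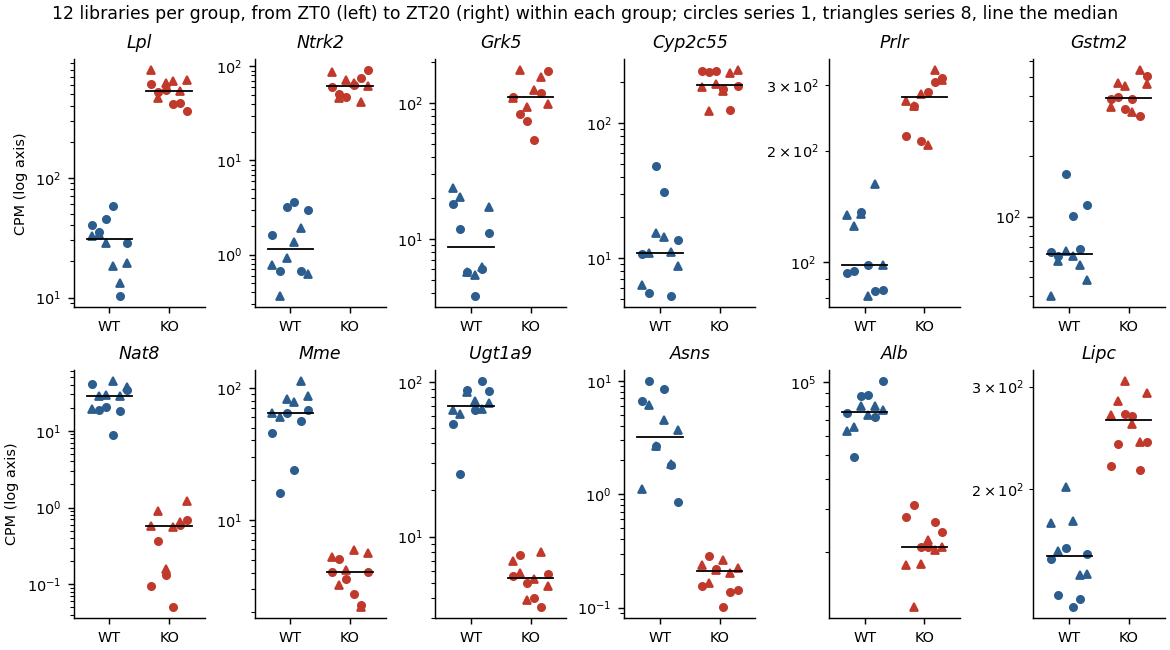
CPM (log axis) of 12 genes in each of the 12 WT (blue) and 12 KO (red) libraries, ordered from ZT0 at the left to ZT20 at the right within a group, circles series 1 and triangles series 8, with a bar at the median. The groups are apart in all 12 panels, by the widest margin in Lpl, Ntrk2 and Nat8 and by the narrowest in Lipc. The panels are a selection of genes without overlap, which were 1.64% of all genes tested. Other genes described here, such as Mup15, Acot3 and Rgs16, overlapped and are not shown.

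Of 22 lipogenic genes 14 fell (63.6%, against 9.48% of all genes tested) and 0 rose, with a median log2 fold of -0.62. The random effect model called 6 lower. Thrsp, a regulator of lipogenesis that lies within 20 Mb of Arntl on chromosome 7, as Dgat2 does, was at 65.8, 146 and 245 CPM in KO and 110, 625 and 1783 in WT (-1.85 ± 0.30, adjusted p = 5.57e-06). Scd1, the stearoyl-CoA desaturase, was at 1266, 3656 and 5466 CPM in KO and 3133, 10550 and 17740 in WT (-1.47 ± 0.27, adjusted p = 2.69e-05). Khk, ketohexokinase, the first enzyme of fructose use, was at 149 to 227 and 255 to 511 CPM with no overlap (-0.83 ± 0.15, adjusted p = 2.4e-05). Dgat2, the last step of triglyceride synthesis, fell by 0.50 (adjusted p = 4.41e-06), and Fads2, a fatty acid desaturase, by 0.78 (adjusted p = 1.03e-05).

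Some central enzymes of the pathway were looked up after these values were seen. Fasn, fatty acid synthase, was called (log2 fold -0.87 ± 0.26, adjusted p = 0.0102), a call lost without KO series 1 and without WT series 8. Acly (-0.21 ± 0.22, adjusted p = 0.573), Acaca (-0.07 ± 0.16, adjusted p = 0.85) and the regulator Srebf1 (-0.47 ± 0.21, adjusted p = 0.116) did not pass the test. Without KO series 1, KO series 8, WT series 1 and WT series 8 in turn, 8, 11, 13 and 7 of the 22 lipogenic genes fell.

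Of 24 genes of cholesterol synthesis and uptake 5 rose (20.8%, against 10.8% of all genes) and 1 fell (4.17%, against 9.48%), with a median log2 fold of 0.31. In the random effect fit 1 rose and 0 fell. Lss, lanosterol synthase, was at 67.3 to 257 CPM in KO and 51.9 to 105 in WT (0.94 ± 0.18, adjusted p = 5.25e-05), and Hmgcs1, HMG-CoA synthase, at 231 to 726 and 78.5 to 465 (1.08 ± 0.25, adjusted p = 0.000911; 0.0778 in limma-voom with the series as a random effect). Idi1, an isomerase of the pathway, rose by 0.83 ± 0.23 (adjusted p = 0.00542), a call lost without KO series 1 and without WT series 1. Without KO series 1, KO series 8, WT series 1 or WT series 8, 2, 3, 2 and 4 of the 24 rose, and 3 without the libraries that stood apart.

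Of 24 genes of fatty acid oxidation and ketogenesis 8 fell (33.3%, against 9.48% of all genes) and 2 rose (8.33%, against 10.8%), with a median of -0.27. The random effect model called 3 lower and 1 higher. Acaa1b, a peroxisomal thiolase, fell by 1.19 (adjusted p = 3.42e-05) and Slc25a20, the carnitine carrier, by 0.60 (adjusted p = 4.97e-05). Pdk4, the kinase that shuts off pyruvate dehydrogenase, went against the list, at 19.9 to 56.4 CPM in KO and 2.53 to 29.5 in WT (1.77 ± 0.25, adjusted p = 3.18e-07). In the same order of series left out, 4, 6, 6 and 5 of the 24 fell, and 1 rose without KO series 1.

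Among 13 genes of lipoproteins, Apom, an apolipoprotein of HDL, was at 95.7 to 150 CPM in KO and 184 to 298 in WT (-0.93 ± 0.11, adjusted p = 4.85e-09), and Lipc, hepatic lipase, at 216 to 307 and 125 to 201 (0.75 ± 0.11, adjusted p = 1.78e-07). Neither overlapped between groups. In all 1 of the 13 rose (7.69%, against 10.8% of all genes) and 2 fell (15.4%, against 9.48%). Only 1 fell when KO series 1, WT series 1 or WT series 8 was left out.

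Of 12 genes of gluconeogenesis and glucose output 6 fell (50%, against 9.48% of all genes) and 0 rose (median -0.20). In the random effect fit 1 fell. Slc2a2, the GLUT2 transporter, was at 116 to 357 CPM in KO and 194 to 616 in WT (-0.81 ± 0.18, adjusted p = 0.000622), and Fbp1, fructose bisphosphatase, at 596 to 931 and 823 to 1374 (-0.47 ± 0.08, adjusted p = 2.03e-05). Slc37a4, the glucose 6-phosphate carrier, fell by 0.60 (adjusted p = 0.00242). Slc2a2 lost its call without KO series 1, and Slc37a4 without KO series 1 and without WT series 1. Pck1 (-0.20 ± 0.25, adjusted p = 0.642) and G6pc (0.18 ± 0.23, adjusted p = 0.657), the enzymes at the ends of the pathway, looked up after their values were seen, did not pass the test. Of the 12, 2 fell without KO series 1, 4 without KO series 8, 3 without WT series 1 and 5 without WT series 8.

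Of 15 genes of glycogen and glycolysis 3 rose (20%) and 5 fell (33.3%), against 10.8% and 9.48% of all genes (median 0.02). The random effect model called 1 higher and 2 lower. Beside Gys2, Pfkfb3, which makes the activator of glycolysis, fell by 1.34 (adjusted p = 0.000117). Gckr, a regulatory protein of hepatic glucose use, was at 246 to 326 CPM in KO and 155 to 228 in WT with no overlap (0.60 ± 0.09, adjusted p = 5.51e-07). Of 12 genes of insulin signalling 2 rose (16.7%) and 4 fell (33.3%). Trib3, a pseudokinase, fell by 1.93 (adjusted p = 4.95e-08) and Foxo3 by 0.49 (adjusted p = 3.35e-05). Sesn3 rose by 0.71 ± 0.11 (adjusted p = 6.76e-07), and Irs1, the insulin receptor substrate, rose by 0.94 ± 0.23 (adjusted p = 0.00192), a call lost without WT series 1. Of the glycogen and glycolysis list 1 gene rose without KO series 8 or WT series 1, and 3 genes fell without KO series 1 or WT series 8. Of the insulin list 1 gene rose without WT series 1.

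Genes of drug and bile acid handling moved in both directions. Of 18 P450 genes and regulators 7 rose (38.9%) and 5 fell (27.8%), against 10.8% and 9.48% of all genes (median 0.30). In the random effect fit 4 rose and 2 fell. Cyp2c29, a P450 of retinoid and drug oxidation, was at 3371 to 6350 CPM in KO and 936 to 2184 in WT with no overlap (1.52 ± 0.16, adjusted p = 6.44e-11), and Ahr, the dioxin receptor, rose by 0.80 ± 0.15 (adjusted p = 5.2e-05). Of 13 transport genes 4 rose (30.8%) and 2 fell (15.4%), and 1 rose and 0 fell with the series as a random effect. Slco1a4, an organic anion uptake carrier, was at 118 to 303 CPM in KO and 19.7 to 190 in WT (1.57 ± 0.24, adjusted p = 1.56e-06), and Abcg5, a sterol exporter, rose by 0.71 ± 0.16 (adjusted p = 0.000852; 0.103 in limma-voom with the series as a random effect). Of the P450 list 4 rose without KO series 8, and 3 fell without WT series 1 or WT series 8; of the transport list 2 rose without WT series 1, and 1 fell whichever of the 4 series was left out.

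The glutathione S-transferases split by class. Of 19 genes 5 rose (26.3%) and 9 fell (47.4%), against 10.8% and 9.48% of all genes (median -0.59), and the 5 that rose were all of the mu class. Gstm2 was at 320, 393 and 539 CPM in KO and 40, 65 and 164 in WT (2.48 ± 0.20, adjusted p = 1.8e-14). Gstm6 was at 294 to 433 and 84.2 to 175 (1.71 ± 0.15, adjusted p = 1.61e-13). Gstm3, which overlapped, was at 280 to 775 and 36.9 to 318 (2.50 ± 0.26, adjusted p = 9.2e-11), and Gstm1 and Gstm7, named after their values were seen, rose by 0.86 ± 0.13 and 0.76 ± 0.12. Among those that fell were Gsta4 of the alpha class (20.3 to 37.7 CPM against 39.0 to 110, no overlap, -1.41 ± 0.17, adjusted p = 4.96e-09) and Gstp1 of the pi class (-1.38 ± 0.18, adjusted p = 2.6e-08). The counts with 1 series left out were 5 higher and 8 to 9 lower. Some genes within a class are similar in sequence, so the split of reads between such neighbours is uncertain.

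Markers of liver zones were compared next. Of 17 pericentral genes 9 rose (52.9%, against 10.8% of all genes) and 1 fell (median 0.34), and of 14 periportal genes 1 rose and 5 fell (35.7%, against 9.48%; median -0.28). With the series as a random effect 4 pericentral genes rose and 2 periportal genes fell. Cyp2c37, a pericentral P450, was at 544 to 1933 CPM in KO and 168 to 632 in WT (1.35 ± 0.21, adjusted p = 2.47e-06). Oat, which makes glutamate from ornithine and lies within 20 Mb of Arntl, was at 1621 to 3646 and 574 to 2136 (1.10 ± 0.18, adjusted p = 4.11e-06), and Slc1a4, an amino acid carrier, at 8.68 to 24.6 and 2.44 to 11.1 (1.21 ± 0.18, adjusted p = 6.74e-07). Cyp2f2, a periportal P450, fell by 0.53 (adjusted p = 0.000564), a call lost without KO series 1, and Pigr, the immunoglobulin carrier, went the other way within its list (0.53 ± 0.10, adjusted p = 0.00011, no overlap). Glul, the glutamine synthetase of the innermost pericentral cells, looked up after its value was seen, did not pass the test (-0.06 ± 0.13, adjusted p = 0.82). Without KO series 8 the pericentral genes that rose were 5 and the periportal genes that fell 3, the latter also without KO series 1 or WT series 1.

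Of 15 genes of the choline and methionine cycle 5 rose (33.3%, against 10.8% of all genes) and 2 fell (13.3%, against 9.48%). Beside Chka, Cbs, which starts transsulfuration, was at 561 to 950 CPM in KO and 251 to 673 in WT (0.79 ± 0.10, adjusted p = 2.37e-08), and Ahcy, the hydrolase of S-adenosylhomocysteine, fell by 0.71 (adjusted p = 1.3e-06). Of 16 genes of NAD synthesis and use 2 rose (12.5%) and 6 fell (37.5%), and 1 rose and 3 fell with the series as a random effect. Nmrk1, nicotinamide riboside kinase, was at 13.8 to 26.8 CPM in KO and 16.6 to 57.2 in WT (-0.87 ± 0.11, adjusted p = 1.98e-08), and Kynu, kynureninase, rose by 0.70 ± 0.09 (adjusted p = 3.11e-08). Without KO series 1, 2 of the 16 NAD genes fell, and 3 without WT series 1 and 4 without WT series 8, while 1 rose without KO series 8 or WT series 1.

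Of 16 autophagy genes 8 fell (50%, against 9.48% of all genes) and 1 rose (median -0.22). The random effect model called 3 lower. Map1lc3a, an LC3 protein of the autophagosome, was at 15.7 to 28.5 CPM in KO and 31.5 to 57.7 in WT with no overlap (-0.85 ± 0.11, adjusted p = 4.54e-08). Tfeb, the transcription factor of the pathway, fell by 0.46 (adjusted p = 2.11e-05), and Lamp2, a lysosomal membrane protein, rose by 0.37 ± 0.07 (adjusted p = 5.98e-05, lost without KO series 8). Without KO series 1, 4 autophagy genes fell, and 6 to 7 without another series. Of 16 genes of the ATF4 amino acid response 3 fell (18.8%; 1 with the series as a random effect) and 1 rose. Asns, asparagine synthetase, was at 0.102, 0.209 and 0.288 CPM in KO and 0.847, 3.17 and 9.96 in WT, with no overlap (-4.17 ± 0.57, adjusted p = 1.11e-07, a call lost with the series as a random effect), while the median of the list was -0.09. Vldlr, a lipoprotein receptor, rose by 1.42 ± 0.28 (adjusted p = 8.39e-05). Of 16 heat shock genes 2 fell (12.5%, near the 9.48% of all genes) and 0 rose, Hspb1, a small heat shock protein, by 2.68 (adjusted p = 2.47e-12) and Hsf1 by 0.20 (adjusted p = 0.0454); the latter call was lost under 8 of 14 alternatives.

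**Figure D5:**
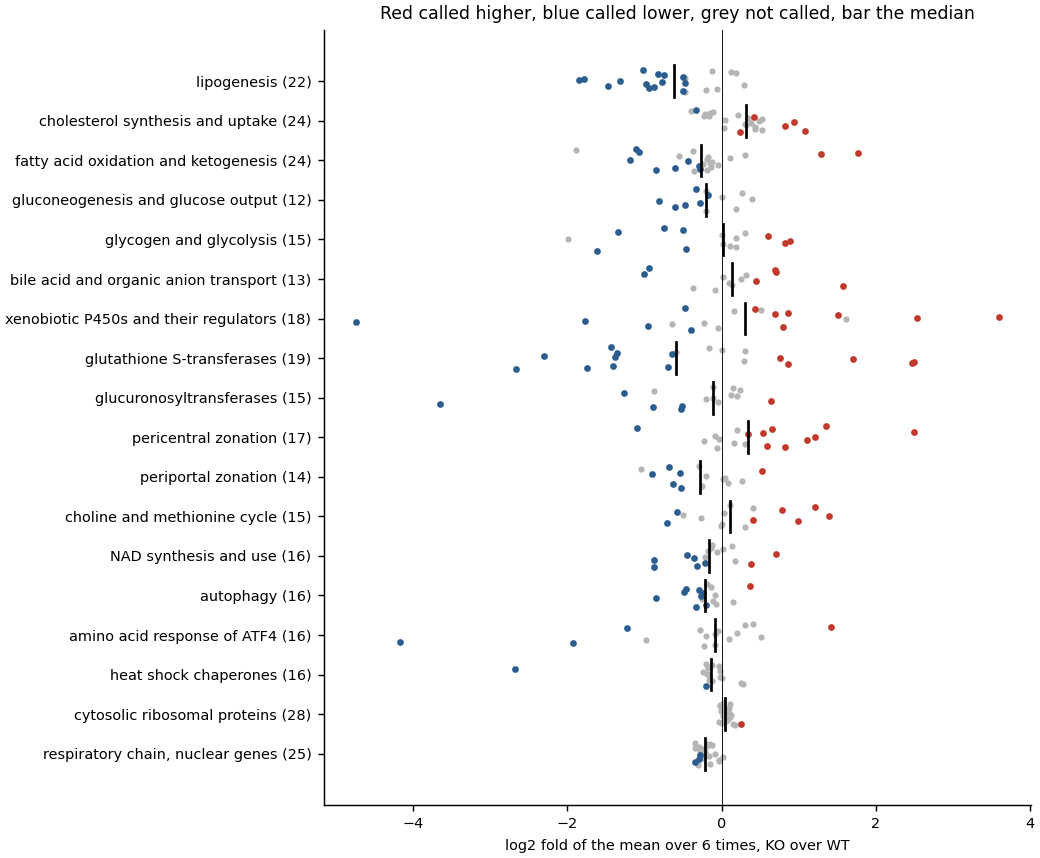
Log2 fold of the mean level in KO over WT for each tested gene of 18 lists (number tested in parentheses), red called higher, blue called lower, grey not called, with a bar at the median of the list. Lipogenic genes lie to the left (median -0.62), pericentral genes to the right (0.34), and cytosolic ribosomal proteins near 0 (0.05).

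Of 15 hormone receptors and genes of G protein signalling 4 rose (26.7%) and 3 fell (20%), against 10.8% and 9.48% of all genes (median -0.13). Of 15 genes of the growth hormone axis 2 rose (13.3%) and 1 fell (6.67%), near those shares. Prlr, the prolactin receptor, was at 207, 278 and 329 CPM in KO and 81.0, 98.1 and 163 in WT with no overlap (1.31 ± 0.16, adjusted p = 4.04e-09). Esr1, the estrogen receptor alpha, was at 10.2 to 21.1 and 18.2 to 76.1 CPM (-1.02 ± 0.17, adjusted p = 6.18e-06). Stat5b, which relays growth hormone, rose by 0.54 ± 0.10 (adjusted p = 1.86e-05). Of 21 male-biased genes 2 rose (9.52%, near the share of all genes; 1 without KO series 8, 4 without the libraries that stood apart) and 4 fell (19.05%; 2 without KO series 1 and 1 with the series as a random effect). Of 17 female-biased genes 3 rose (17.6%) and 6 fell (35.3%; 2 with the series as a random effect), with 3 that fell without KO series 8, WT series 1 or WT series 8, and 1 that rose without KO series 1. Cyp17a1, a steroid hydroxylase of the female-biased list, was at 0.307 to 1.94 CPM in KO and 2.34 to 27.6 in WT with no overlap (-3.50 ± 0.50, adjusted p = 3.34e-07).

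Alb, serum albumin, was at 11850, 20870 and 31220 CPM in KO and 49090, 75630 and 101100 in WT (log2 fold -1.78 ± 0.14, adjusted p = 1.45e-15), with no overlap, and in RF its log2 fold was -1.27 (adjusted p = 7.93e-11). Trf, transferrin, was at 8344 to 14320 and 14570 to 23390 CPM in the 2 groups (-0.71 ± 0.12, adjusted p = 3.58e-06). Among complement genes C1s1 (-0.70 ± 0.08, adjusted p = 2.69e-10) and C2 (-0.79 ± 0.12, adjusted p = 8.14e-07) had no overlap, whereas C9 rose by 0.91 ± 0.14 (adjusted p = 1.39e-06). Of 30 coagulation and complement genes 4 rose (13.3%, near the 10.8% of all genes) and 6 fell (20%, against 9.48%), with 1 that rose without KO series 8 and 2 without KO series 1 or WT series 1.

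The 10 genes highest in WT, a choice that favours a larger share there, held 16.7% to 20.8% of counts in WT and 10.4% to 12.9% in KO, and 8 of them were called lower and 1 higher. The 100 highest in WT held 41.6% to 45.7% and 36.4% to 38.2%, with 32 called lower and 10 higher (median log2 fold -0.19). Of 13 mitochondrially encoded mRNAs 10 fell and 0 rose (median log2 fold -0.59), against 9.48% and 10.8% of all genes called lower and higher. Their summed level was 40312 to 55903 CPM in KO and 61387 to 81367 in WT. Under RF the summed ranges overlapped, at 40193 to 56605 CPM in KO and 45437 to 69752 in WT. Of 25 nuclear genes of the respiratory chain 3 fell (12%, near the 9.48% of all genes) and 0 rose (median -0.22). Without KO series 1, WT series 1 or WT series 8, 0 of them fell. Of 28 cytosolic ribosomal protein genes 1 rose (3.57%, against 10.8% of all genes) and 0 fell (median 0.05).

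Genes near Arntl were also counted on their own, since the labels do not give the strain background and an effect of the knockout and of chromosome sequence that travels with the allele cannot be told apart. Of 425 tested genes within 20 Mb of Arntl on chromosome 7, 25.9% were called, against 20.3% of 16915 on other chromosomes; without overlap were 1.18% and 1.68%. The share within 2 Mb was 31.6% of 19 genes and from 2 to 5 Mb 13.6% of 44. Thrsp (-15.85 Mb from Arntl), Dgat2 (-14.09 Mb) and Oat (19.31 Mb), described with their lists, lie in this window. Trim12a, of a cluster of antiviral Trim genes 8.95 Mb away (chr7:104299894-104315466, GRCm38), had 0 counts in all 12 KO libraries and 0.0485 to 10.1 CPM in WT, at least 541-fold lower in KO against a floor of 3 counts over the group. Under RF the KO library of series 2 at ZT16 held 3.02 CPM of Trim12a (79 counts). The neighbour Trim5 was at 0 to 0.204 and 0.0485 to 2.47 CPM under AL, with reads that may be shared within the cluster. The cluster did not move one way. Trim34b (log2 fold 3.15, every KO library above every WT library), Trim6 (0.90) and Trim12c (0.71) were called higher, and Trim30d (-2.75) and Trim34a (-0.75) lower. P2ry2, a nucleotide receptor, was at 2.73 to 7.73 CPM in KO and 8.79 to 26.6 in WT (-1.71 ± 0.16, adjusted p = 7.18e-13), Parva, an adhesion protein, at 146 to 183 and 99.8 to 134 (0.57 ± 0.06, adjusted p = 8.29e-12), and Mical2 rose by 1.04 ± 0.10 and Neu3 by 1.76 ± 0.18.

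The same contrast was measured under night restricted feeding in 24 other libraries. There 9.97% of genes were called higher and 8.3% lower, and 2097 genes were called the same way in both regimens and 2 the opposite way. The 2097 are 56.3% of the AL calls and 62.6% of the RF calls. No gene passed the test of the difference in KO effect between AL and RF (0%, edgeR; 1135 genes at an unadjusted p under 0.05, 14 genes called by DESeq2). Npas2 (log2 fold 4.97 in RF), Cry1 (1.86), Gys2 (-1.48), Lpl (4.19) and Nat8 (-6.11) had values near those of AL, all called in RF.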

How the data were processed

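Poly(A) RNA of mouse liver was sequenced in 96 libraries (TruSeq Stranded mRNA, 250 ng of total RNA, paired-end, 100 cycles), per the labels' protocols. The authors deposited whole-number counts per Ensembl gene identifier; the submitters' processing notes name STAR 2.4.0i and mm10. Which program counted reads, with what strand setting and annotation, is not given in the sources used here, so reads of overlapping, antisense or near-identical genes may be split between them. Symbols and coordinates came from GENCODE M21 (GRCm38, the sequence of mm10), and 181 of 55421 identifiers had no symbol (0.0244% of counts).

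From the counts, edgeR 4.0.16 (R 4.3.3; TMM scaling, filterByExpr with a minimum count of 10, robust quasi-likelihood fit) fitted a mean for each of the 48 combinations of group and time over all 96 libraries, so that they share one estimate of spread. In this fit KO was compared with WT for the mean over 6 times and for dependence on time (5 degrees of freedom). Rhythm was tested in a separate edgeR fit of all 96 libraries, with a mean and a 24 h cosine per group. That fit had its own estimate of spread, which also takes in variation over time that a cosine does not follow. Benjamini-Hochberg adjustment covered all 18326 genes tested, with a threshold of 0.05. Log2 folds are KO minus WT, and CPM are TMM-scaled. The SE is the absolute log2 fold divided by the square root of the F statistic of its test, so it is unreliable for very small folds. Genes named are all clock genes on 5 lists, the largest called changes, up to 5 genes per list with the smallest p, the strongest by time and rhythm, and the 6 with the smallest p within 20 Mb of Arntl; exceptions are marked, and a few genes the rule names are not reported here. Members and lists were chosen with earlier results of these data known.

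Libraries of one group and time differed by more than counting noise (chi-square per degree of freedom of 31.7 to 101), so none was counted as a duplicate. Series numbers 1 and 8 were not taken as pairs (correlations of deviations from -0.137 to 0.40 over the 6 times). Tested on simulated counts of 18094 genes, the mean level test called 78% of genes changed 1.5-fold and 94% changed 2-fold, and the rhythm difference test 18% of genes with an added range of 1 log2 and 64% with 2. Changes were planted only in genes with a mean of at least 1 CPM, and the simulated libraries carried no effect shared within a series. These shares therefore do not describe genes at lower levels or libraries with such an effect. Alternatives were DESeq2 1.42.0, limma 3.58.1 (voom), other scaling and filters, a replicate block, each series left out, and, added after the data were seen, a filter on the 8 groups and leaving out 16 libraries that stood apart (Saa1 above 1000, Isg15 above 50 or Ctrb1 above 40 CPM). Promoters are RefSeq windows (GRCm38.p6). Tables and figures used Python 3.11.15, pandas 2.3.3 and matplotlib 3.10.9.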

Additional observations from a re-analysis of the deposited data

Results flagged for a closer look

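The difference between KO and WT depended on the time of day for 27 of the genes followed one by one, by edgeR's test of the interaction over 6 times with Benjamini-Hochberg adjusted p given in parentheses. In the activating arm these were Arntl (1.442e-12), Npas2 (1.442e-12) and Clock (0.04954). Among the repressors and receptors they were Per3 (2.59e-12), Cry1 (5.999e-06), Ciart (2.089e-05), Nr1d1 (9.747e-10) and Nr1d2 (1.19e-05). In the PAR bZIP arm they were Dbp (3.914e-12), Tef (2.404e-12) and Nfil3 (0.003218). Among E-box outputs and genes responding to the receptors they were Usp2 (3.006e-06), Wee1 (2.42e-06), Nampt (0.0001224), Coq10b (0.006051), Gys2 (0.0002819) and Avpr1a (6.973e-05). Among the others they were Clpx (1.125e-08), Lgalsl (1.102e-06), Chka (6.259e-07), Lrfn3 (5.999e-06), Slc5a6 (5.999e-06), Cdkn1a (0.01053), Dnmt3b (1.19e-05), Por (0.03173), Loxl4 (0.006051) and Nmrk1 (0.03482). In each the daily range was smaller in KO than in WT. Lrfn3, an adhesion protein, was at 14 to 19.2 CPM in KO and 1.99 to 23.3 in WT.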

How the results depend on the processing

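With a replicate block on the series number, which was not taken as a pairing, 3888 genes differed in mean level, 82 by time and 118 in rhythm, against 3724, 75 and 111 without it, and 1482 were rhythmic in WT, 41 in KO, and 0 differed between AL and RF. With the series as a random effect in limma-voom 1361 genes differed in mean level (719 higher, 642 lower), and of 161 genes followed one by one 32 lost their call, among them Asns, Gsta1, Elovl3, Klf10 and Pfkfb3; the cause was not tested. With 1 series left out the ranges were 2290 to 3955 for the mean level, 32 to 50 by time (75 in all), 213 to 1344 for rhythm in WT (1452), 2 to 47 for rhythm in KO (49), 31 to 51 for the rhythm difference (111) and 0 to 1 for AL against RF (0); these fits have fewer libraries. With no filter on low counts 727 genes differed by time, 583 were rhythmic in KO, 750 differed in rhythm and 332 between AL and RF, with 35670 genes tested; the cause was not tested. Rhythm in KO was called for 6 genes at a mean of at least 1 CPM, 6 with the compared groups alone, 1 by limma-voom, 5 with the filter on the 8 groups and 29 by any difference between the 6 times, which gave 862 in WT. DESeq2 called 189 genes by time and 14 between AL and RF, where 4 were called at a mean of at least 1 CPM and 2 with the groups alone. No gene called in mean level was called the opposite way under any of these alternatives. Over the 161 genes and 14 alternatives 2133 of 2254 values kept direction and call, 103 lost the call, 3 gained it and 0 called values reversed. Saa1 (log2 fold -3.06) lost its call without the libraries that stood apart. Depth limits genes at or below 1 CPM, whose fitted folds and rhythms rest on few counts.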

Other observations

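Further lists described the liver of KO mice as follows, each with the mean level over the 6 times. Of 19 genes of the urea cycle and amino acid breakdown 4 rose (21.1%, against 10.8% of all genes) and 2 fell (10.5%, against 9.48%), among them Asl, argininosuccinate lyase, at 277 to 442 CPM in KO and 416 to 1047 in WT (log2 fold -0.90 ± 0.14, adjusted p = 1.61e-06). Of 18 genes that gate the cell cycle 3 rose (16.7%) and 4 fell (22.2%; 1 with the series as a random effect), with Ccne1, a cyclin E, at 0.225 to 0.966 CPM in KO and 0.363 to 9.84 in WT (-1.45 ± 0.26, adjusted p = 2.89e-05, a call lost with the series as a random effect). Of 15 genes of the glucocorticoid response 4 rose (26.7%) and 2 fell (13.3%), against 10.8% and 9.48% of all genes. Without KO series 8, 2 of these 15 rose. Of the urea cycle list 2 genes rose without KO series 8 or WT series 8 and 1 fell without KO series 1, KO series 8 or WT series 1, and of the cell cycle list 2 genes fell without KO series 8 or WT series 1.

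Of 14 immediate early genes 5 fell (35.7%; 1 with the series as a random effect) and 1 rose, with Zfp36, an RNA decay factor, at 28.2 to 56.2 CPM in KO and 39.2 to 96.2 in WT (-0.64 ± 0.14, adjusted p = 0.000559), a call lost without KO series 8 and without WT series 1. Without WT series 1, 0 of the 14 fell, and 2 without KO series 8. Of 20 genes of the unfolded protein response 2 fell (10%, near the share of all genes) and 0 rose. Without WT series 1 or without the libraries that stood apart 1 fell. Herpud1, a protein of degradation at the endoplasmic reticulum, was at 66.7 to 293 CPM in KO and 175 to 707 in WT (-1.03 ± 0.18, adjusted p = 2.29e-05). Its fitted daily ranges were 1.44 (KO) and 1.5 (WT) log2, but 0 genes of the list had a called rhythm in KO. Of 18 acute phase genes 1 rose and 4 fell (22.2%), 2 without the libraries that stood apart and 1 without KO series 1, KO series 8 or WT series 1, and Saa4 was at 32.3 to 136 CPM in KO and 120 to 622 in WT (-1.74 ± 0.30, adjusted p = 9.62e-06). Of 17 interferon response genes 1 rose and 1 fell (5.88% each, against 10.8% and 9.48% of all genes).

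Sox9, a factor of bile duct cells, was at 9.39 to 21.8 CPM in KO and 2.35 to 11.2 in WT (1.25 ± 0.18, adjusted p = 2.14e-07), while the median of the 7 biliary markers was -0.02. Alas2, the erythroid enzyme of heme synthesis, was at 41.2 to 80.2 CPM in KO and 77.3 to 169 in WT (-1.04 ± 0.15, adjusted p = 5.88e-07), and the summed erythroid markers ranged from 73.7 to 257 CPM in KO and 96.1 to 643 in WT.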
